A study of Homo sapiens with 3 samples.

Results

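The metallothionein genes were followed in parental MM468 cells and in a paclitaxel-resistant derivative, MM468/PR, together with the zinc-sensing regulator MTF1 and the zinc exporter SLC30A1. The members were chosen by gene symbol with earlier results of these read counts known, and they are described here without a test. They number 10 of the 46427 genes in the count table, of which 8 are metallothionein genes on chromosome 16. MM468 is MDA-MB-468, an established triple-negative breast cancer line, and the parental cells were labelled wild type and were not treated. MM468/PR is the population of this line that survived paclitaxel at 2 to 320 nmol/L. Both lines were grown in the same medium with fetal bovine serum, and neither the clonality of MM468/PR nor the presence of drug at harvest is given in the sources used here. Each line gave 1 RNA-seq library, so no spread between replicates exists, and every interval below covers counting error only.

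Metallothioneins are small intracellular proteins in which cysteines hold zinc, copper and cadmium in clusters. Cells use them to buffer zinc and to blunt toxic metals. MTF1 is a zinc-finger transcription factor that senses free zinc and binds metal response elements, short motifs repeated in metallothionein promoters. SLC30A1, also called ZnT1, moves zinc out of the cell across the plasma membrane and is a textbook target of MTF1, whereas the SLC39 family brings zinc into the cytosol.

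The metallothionein genes form a cluster at chr16:56565073-56684196 (GRCh38.p14, RefSeq), which spans 119.124 kb and holds 11 protein-coding members of the family. In order along the chromosome these are MT4, MT3, MT2A, MT1E, MT1M, MT1A, MT1B, MT1F, MT1G, MT1H and MT1X. MTF1 lies at chr1:37809574-37859592 and SLC30A1 at chr1:211571568-211579161. RefSeq promoter sequences matched 5 of the 10 members, and MT1A, MT1E, MT1F, MT1G and MT1M had no entry. The 250 bases before the start of each matched gene are shown because metal response elements are known from metallothionein promoters, printed 5′ to 3′ on the strand of the gene, with the metal response element cores in capitals.
MT2A (chr16:56608334-56608583, + strand): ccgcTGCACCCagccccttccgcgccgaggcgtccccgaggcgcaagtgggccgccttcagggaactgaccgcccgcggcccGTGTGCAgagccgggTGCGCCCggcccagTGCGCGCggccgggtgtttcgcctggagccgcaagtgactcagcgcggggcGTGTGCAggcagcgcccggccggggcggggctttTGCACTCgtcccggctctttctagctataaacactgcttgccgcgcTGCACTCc
MT1X (chr16:56682220-56682469, + strand): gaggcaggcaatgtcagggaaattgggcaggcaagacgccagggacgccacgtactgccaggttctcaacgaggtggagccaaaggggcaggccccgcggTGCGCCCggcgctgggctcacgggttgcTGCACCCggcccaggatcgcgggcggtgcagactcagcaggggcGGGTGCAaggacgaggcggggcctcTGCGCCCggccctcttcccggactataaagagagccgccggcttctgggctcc
MT1H (chr16:56669564-56669813, + strand): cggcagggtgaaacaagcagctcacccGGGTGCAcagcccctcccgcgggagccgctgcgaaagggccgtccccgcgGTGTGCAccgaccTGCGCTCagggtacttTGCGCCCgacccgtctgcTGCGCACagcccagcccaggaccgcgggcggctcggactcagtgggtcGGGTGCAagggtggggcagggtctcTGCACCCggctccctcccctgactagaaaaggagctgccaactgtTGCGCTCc
SLC30A1 (chr1:211579162-211579411, - strand): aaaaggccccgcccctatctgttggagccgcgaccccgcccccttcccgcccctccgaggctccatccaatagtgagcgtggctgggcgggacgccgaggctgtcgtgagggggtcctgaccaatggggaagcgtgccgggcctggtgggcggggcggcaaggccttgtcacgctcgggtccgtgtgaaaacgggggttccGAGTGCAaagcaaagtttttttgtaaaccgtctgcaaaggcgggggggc
MTF1 (chr1:37859593-37859842, - strand): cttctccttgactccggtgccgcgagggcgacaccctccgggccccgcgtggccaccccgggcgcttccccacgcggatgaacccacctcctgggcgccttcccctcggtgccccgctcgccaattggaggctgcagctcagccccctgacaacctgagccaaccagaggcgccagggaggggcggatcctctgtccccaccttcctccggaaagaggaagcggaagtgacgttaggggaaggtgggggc

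The cores searched were TGCACNC and TGCGCNC, on both strands and with no overlapping matches in these promoters. MT2A held 7 cores, MT1H held 8 and MT1X held 4. SLC30A1 held 1 core and MTF1 held 0 in this window. Of the 35116 promoters searched in the same way, 24.8% held at least 1 core, 0.370% held 4 or more, 0.0313% held 7 or more and 0.0171% held 8 or more. The promoters searched include the metallothionein promoters above, and the motif is known from such promoters, so these shares are a description. The MT1H promoter held the most cores among the 5 members searched, and MT1H had 0 counts in both libraries. These matches describe letters in a window and were not tested for binding.

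The 4 detected metallothionein genes encode proteins of the same length. Their coding sequences are shown, exons joined and without untranslated parts (GENCODE transcripts, GRCh38, plus strand), because their likeness bears on how reads can be assigned. Cysteine codons are in capitals.
MT2A: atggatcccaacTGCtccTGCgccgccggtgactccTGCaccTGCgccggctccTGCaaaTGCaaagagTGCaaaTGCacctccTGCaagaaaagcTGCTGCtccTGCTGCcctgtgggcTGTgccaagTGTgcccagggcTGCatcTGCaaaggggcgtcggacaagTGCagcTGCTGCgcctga
MT1X: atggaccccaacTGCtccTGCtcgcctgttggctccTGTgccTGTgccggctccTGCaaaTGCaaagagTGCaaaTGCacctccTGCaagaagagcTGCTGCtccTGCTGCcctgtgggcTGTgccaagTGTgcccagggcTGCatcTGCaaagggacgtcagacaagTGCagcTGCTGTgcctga
MT1E: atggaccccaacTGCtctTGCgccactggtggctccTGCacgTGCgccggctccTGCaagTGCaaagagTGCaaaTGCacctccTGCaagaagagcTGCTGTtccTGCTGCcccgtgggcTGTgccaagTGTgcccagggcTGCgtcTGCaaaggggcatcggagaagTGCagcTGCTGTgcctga
MT1F: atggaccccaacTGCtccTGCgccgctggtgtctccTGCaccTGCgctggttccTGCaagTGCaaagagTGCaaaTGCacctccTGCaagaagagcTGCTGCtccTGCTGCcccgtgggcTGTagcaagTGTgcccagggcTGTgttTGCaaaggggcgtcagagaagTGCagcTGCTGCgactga

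Each of these coding sequences was 186 bases long with the stop codon and held 61 codons, of which 20 were cysteine codons. Coding identity to the closest other gene of the family was 95.2% for MT2A (to MT1G), 94.6% for MT1E (to MT1G) and 93.0% for MT1F (to MT1G) and for MT1X (to MT1H). Between a detected gene and any other protein-coding gene of the family, the longest run of identical transcript bases was 96, for MT1X and MT1G. Pseudogenes were not part of this comparison. Reads from such stretches can be split between genes, so the value of any 1 metallothionein gene is uncertain. The sum over all metallothionein genes of the table does not depend on how reads were split among those genes, and it is given beside the single genes. Reads left uncounted or assigned outside those genes would still change it.

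The libraries held 32704885 counts for parental MM468 and 43242628 for MM468/PR. Counts were scaled by TMM (trimmed mean of M values, a library scaling that assumes most genes do not change) and are given as normalized CPM, counts scaled to library depth. The breast epithelial markers EPCAM, CDH1, KRT7, KRT8, KRT18, KRT19 and EGFR were all detected, with a summed level of 9150 TPM (a unit that also divides by transcript length) in parental MM468 and 8669 in MM468/PR. Within that sum KRT7 was 2.24-fold and KRT19 1.96-fold lower in MM468/PR, and CDH1 was 1.72-fold higher. Of the receptors that define the triple-negative subtype by their absence, ERBB2 stood at 32.3 and 28.1 TPM, ESR1 at 1.69 and 1.45 TPM, and PGR had 0 and 7 counts. Leukocyte markers summed to 0.605 and 0.870 TPM and endothelial markers to 0.304 and 0.386 TPM. Fibroblast markers summed to 9.54 and 7.94 TPM, mostly from COL1A1, with COL1A2 at 0 counts. Among them PDGFRA was 14.5-fold lower in MM468/PR (152 and 16 counts) and COL3A1 was 6.54-fold higher (2 and 21 counts). The part of these markers in the results was not tested. ABCB1, the drug efflux pump, had 10 counts in the parental library and 8171 in the resistant one. In bulk RNA a smaller share of expressing cells and less RNA per cell cannot be told apart.

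Metallothionein RNA was lower in MM468/PR than in the parental line. Summed over the 18 metallothionein genes and pseudogenes of the table, there were 12603 counts in parental MM468 against 7172 in MM468/PR. The sum was 406 normalized CPM in the parental library and 150 in the resistant one, a 2.71-fold lower level (95% counting interval 2.63 to 2.79). It took up 0.0385% of the parental library and 0.0166% of the resistant one. Without MT2A, the sum of the other 17 genes was 84.0 and 36.3 normalized CPM, which was 2.32-fold lower in MM468/PR (2.18 to 2.46).

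The sums came from few genes, since 12 of the 18 had 0 counts in both libraries, 8 of them protein-coding. Among the members, MT1A, MT1G, MT1H and MT1M were listed at 0 counts. At the depth of these libraries a count of 0 allows up to 3 counts, leaving aside reads that may have been assigned to a near-identical gene, or 0.0968 normalized CPM in parental MM468 and 0.0627 in MM468/PR. MT3 and MT4, known for restricted expression in brain and in stratified squamous epithelium, also had 0 counts, as did MT1B and MT1HL1. The pseudogenes MT2P1, with 2 and 1 counts, and MT1XP1, with 2 and 3, stayed under the minimum of 10 counts in at least 1 library that a gene needed to be compared. That minimum was passed by 4 metallothionein genes, MTF1 and SLC30A1, which makes 6 of the 10 members.

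MT2A, the most widely expressed human metallothionein, carried most of the family's RNA. It had 9999 counts in the parental library and 5438 in the resistant one, or 322 and 114 normalized CPM. MT2A was 2.84-fold lower in MM468/PR (2.74 to 2.93), the largest difference among the members. Its share of the family's counts was 79.3% in parental MM468 and 75.8% in MM468/PR, so it led the family by a wide margin in both lines. Ranked by TPM among all genes, it stood at place 55 in parental MM468 and 143 in MM468/PR. Of the 19561 genes compared, 1455, or 7.44%, had a lower log2 fold change than MT2A.

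MT1X is an MT1 isoform at the far end of the cluster. It had 1399 counts in the parental library and 872 in the resistant one, or 45.1 and 18.2 normalized CPM. MT1X was 2.47-fold lower in MM468/PR (2.27 to 2.70). Its share of the family's counts was 11.1% and 12.2%. In TPM, MT2A exceeded MT1X 7.20-fold in parental MM468 and 6.29-fold in MM468/PR, so the order of these genes was the same in both lines.

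MT1E is the neighbour of MT2A in the cluster. It had 964 counts in the parental library and 707 in the resistant one, or 31.1 and 14.8 normalized CPM. MT1E was 2.10-fold lower in MM468/PR (1.91 to 2.32), and its interval reached below 2-fold. Its share of the family's counts was 7.65% and 9.86%. The MT1E transcript shared at most 52 bases in a row with any other protein-coding gene of the family.

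MT1F, another MT1 isoform, had the lowest level of the detected metallothionein genes. It had 237 counts in the parental library and 151 in the resistant one, or 7.64 and 3.16 normalized CPM. MT1F was 2.42-fold lower in MM468/PR (1.97 to 2.99), with the widest interval of the members because its counts were fewest. Its share of the family's counts was 1.88% and 2.11%. All 4 detected metallothionein genes thus lay lower in MM468/PR, between 2.10-fold and 2.84-fold.

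**Figure D1:**
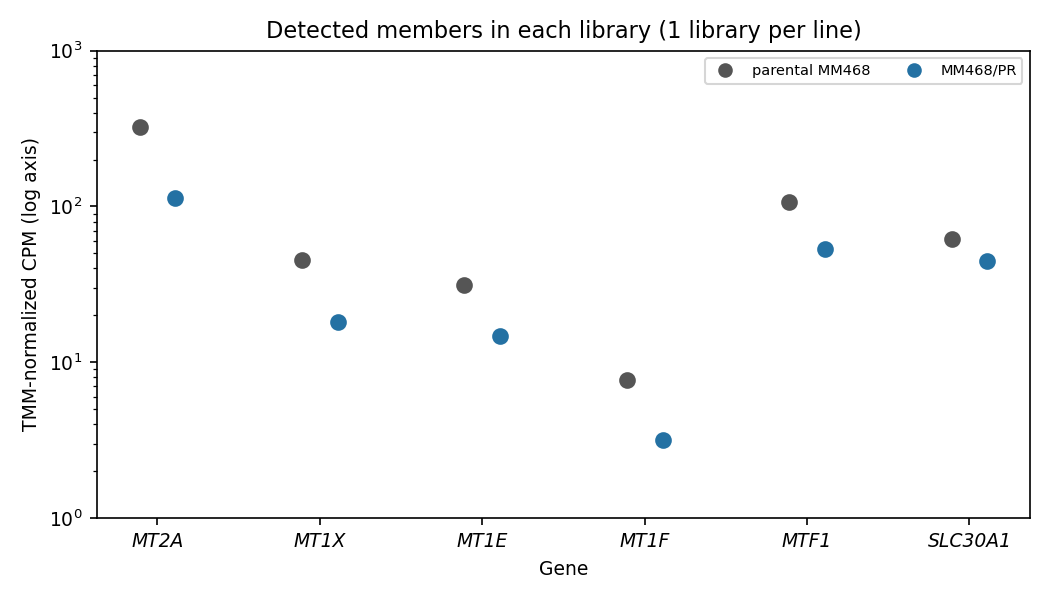
TMM-normalized CPM on a log axis for the 6 detected members, with 1 point per library in grey (parental MM468) and blue (MM468/PR). All 6 lie lower in MM468/PR, with MT2A at 322 and 114 normalized CPM and SLC30A1 at 62.2 and 44.4.

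MTF1, the regulator, was also lower in the resistant line. It had 3302 counts in the parental library and 2561 in the resistant one, or 106 and 53.6 normalized CPM. MTF1 was 1.99-fold lower in MM468/PR (1.89 to 2.09), just short of the 2-fold threshold, and with DESeq2 size factors it passed that threshold. TMM on 2 libraries left it just short of 2-fold, and library size only, TPM and FPKM took it farther away. The log2 fold change of MTF1 went from -0.99 to -0.77 with library size only. It was -0.64 and -0.67 with TPM, and -0.68 and -0.74 with FPKM, at pseudocounts of 1 and 0.1.

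SLC30A1, the exporter, differed least among the detected members. It had 1928 counts in the parental library and 2125 in the resistant one, or 62.2 and 44.4 normalized CPM. SLC30A1 was 1.40-fold lower in MM468/PR (1.31 to 1.49), and its interval did not overlap that of any detected metallothionein gene or of MTF1. Its log2 fold change ranged from -0.50 to -0.15 over the alternative scalings and settings.

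On the per-length TPM scale, the order of levels in parental MM468 was MT2A (1687 TPM), MT1X (234), MT1E (149), MT1F (36.6), MTF1 (28.6) and SLC30A1 (22.1). In MM468/PR it was MT2A (744 TPM), MT1X (118), MT1E (84.7), SLC30A1 (19.8), MT1F (18.6) and MTF1 (18.0). On this scale the exporter thus stood below MT1F and MTF1 in the parental line and above both in the resistant line. In normalized CPM, which does not divide by length, SLC30A1 stood above MT1F and below MTF1 in both lines. With 1 library per line it cannot be said which neighbours in these orders differ beyond the spread between cultures.

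Of the 6 members that passed the minimum, 4 (MT2A, MT1X, MT1E and MT1F) were at least 2-fold lower and 0 at least 2-fold higher in MM468/PR. Over all 19561 genes compared, the lower calls made up 13.7% and the higher calls 20.6%. The median log2 fold change of the 6 members was -1.17, and over all genes it was 0.067. The members were known to move when they were chosen, so these shares are given as a description. The count of 4 depended on the scale, since 3 members fell past the threshold by library size alone and 1 by the deposited TPM. Of the 19561 genes, 2684 were at least 2-fold lower by TMM and 2008 by library size alone. By TPM with pseudocounts of 1 and 0.1, 1059 and 1637 were. The calls over all genes also moved with the scale, as 60.0% of them were higher by TMM, 70.7% by library size alone, and 71.2% and 75.0% by TPM with pseudocounts of 1 and 0.1. Library size alone shifted the median over all genes by 0.22 on the log2 scale.

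**Figure D2:**
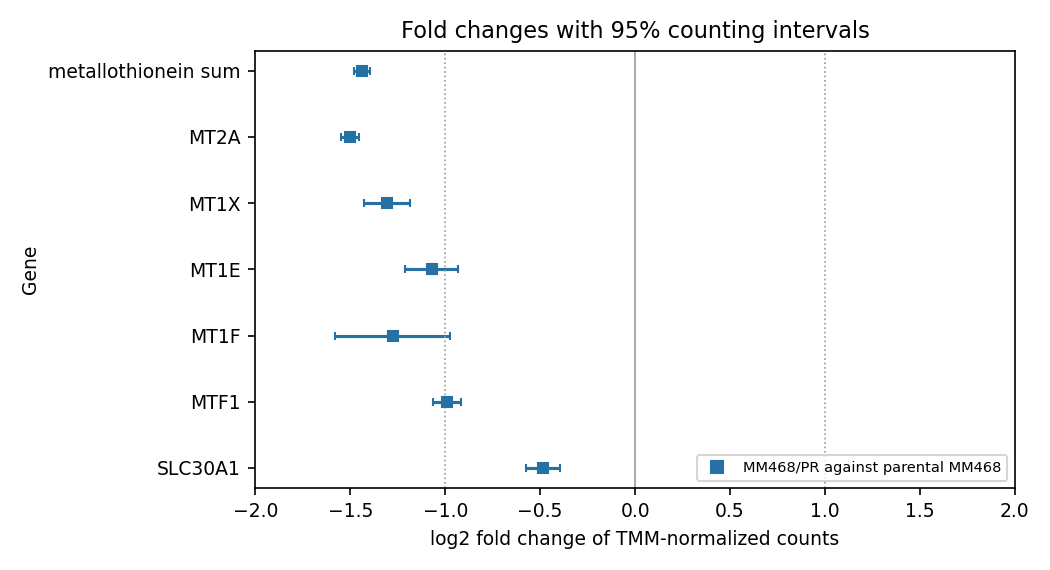
Log2 fold changes of TMM-normalized counts in MM468/PR against parental MM468 for the metallothionein sum and the 6 detected members, with bars for the 95% counting interval and dotted lines at 2-fold. The sum lies at -1.44, MT2A at -1.5, MTF1 at -0.99 and SLC30A1 at -0.48.

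The genes next to the cluster were read beside it, and whether a change was shared along the chromosome was not tested. The 3 nearest reported on each side were NUDT21, OGFOD1 and BBS2 before it and NUP93, SLC12A3 and HERPUD1 after it, and all 6 passed the minimum. In MM468/PR, 1 was at least 2-fold lower and 1 higher, with a median log2 fold change of -0.60. Over all genes compared, 13.7% were lower and 20.6% higher by that threshold, and the median was 0.067. BBS2, a ciliary gene and the nearest on the MT4 side, had a log2 fold change of -0.57 (1389 and 1446 counts). NUP93, a nuclear pore gene and the nearest beyond MT1X, had -0.17 (3960 and 5422 counts). OGFOD1 was lower at -1.06, close to MT1E at -1.07, and NUDT21 stood at -0.94. SLC12A3, a salt transporter with 61 and 190 counts, was 2.02-fold higher. HERPUD1, a gene of endoplasmic reticulum protein turnover, had -0.64.

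**Figure D3:**
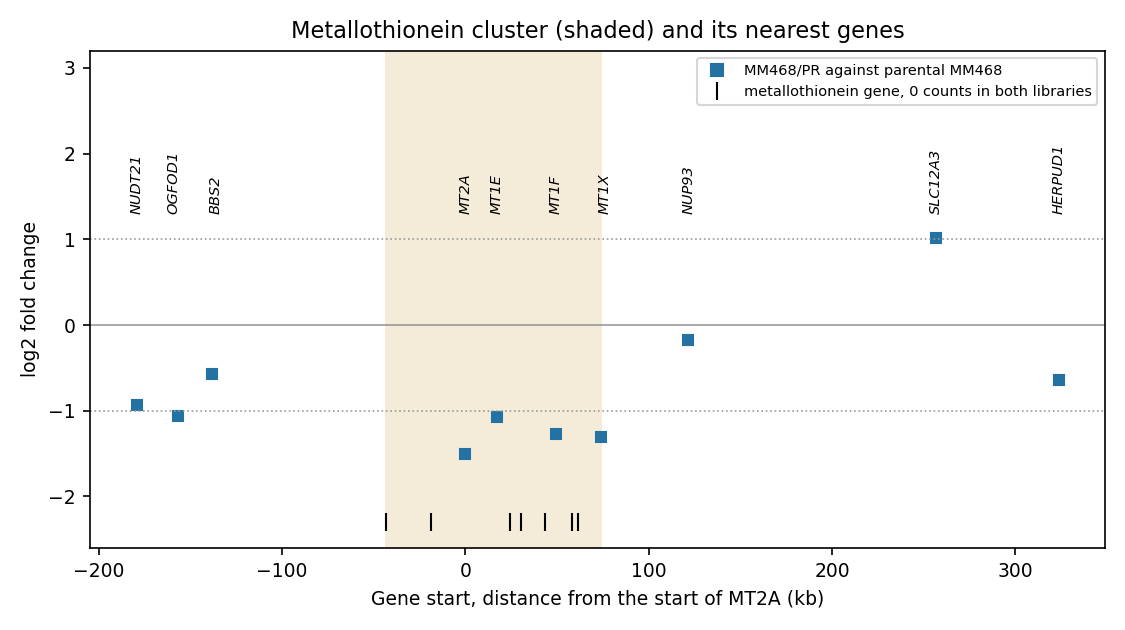
Log2 fold change in MM468/PR against parental MM468 of each detected gene in and around the metallothionein cluster (shaded), plotted against its distance from the start of MT2A in kb, with dotted lines at 2-fold. Black ticks are the 7 metallothionein genes with 0 counts in both libraries; the 4 detected metallothionein genes lie between -1.07 and -1.5, and NUDT21 and OGFOD1 lie at -0.94 and -1.06.

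Other genes of metal handling were taken from lists fixed with earlier results known, in which genes with at least 100 counts in a compared library were named where they passed 2-fold. The calls and medians of every list below stand beside 13.7% lower, 20.6% higher and a median log2 fold change of 0.067 over all genes compared. The lists were not tested against these shares. The 10 SLC30 exporters include SLC30A1, which is also a member. Of these 10, 8 passed the minimum, and 2 were at least 2-fold lower and 1 higher in MM468/PR. SLC30A2, a vesicular transporter known for zinc in milk, had 115 counts in the parental library and 24 in the resistant one, and was 7.35-fold lower. SLC30A5, which loads zinc into the early secretory pathway, had 2018 and 1380 counts and was 2.25-fold lower. The exporter counted as higher was SLC30A3, named after its values were seen, with 7 and 25 counts. The median log2 fold change of the exporters was -0.41.

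Of the 14 SLC39 importers, 12 passed the minimum, and 2 were at least 2-fold lower and 1 higher in MM468/PR. Over all genes compared, the shares were 13.7% lower and 20.6% higher. SLC39A4, the intestinal-type importer ZIP4, had 305 and 145 counts and was 3.24-fold lower. SLC39A7, which releases zinc from the endoplasmic reticulum, had 9026 and 5694 counts and was 2.44-fold lower. SLC39A12, named after its values were seen, had 0 and 30 counts and was at least 6.48-fold higher against the limit of 3 counts. The median log2 fold change of the importers was -0.45, near that of the exporters, and both medians lay above the members' -1.17. The members were known to move when they were chosen, so this difference in medians is a description and was not tested.

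**Figure D4:**
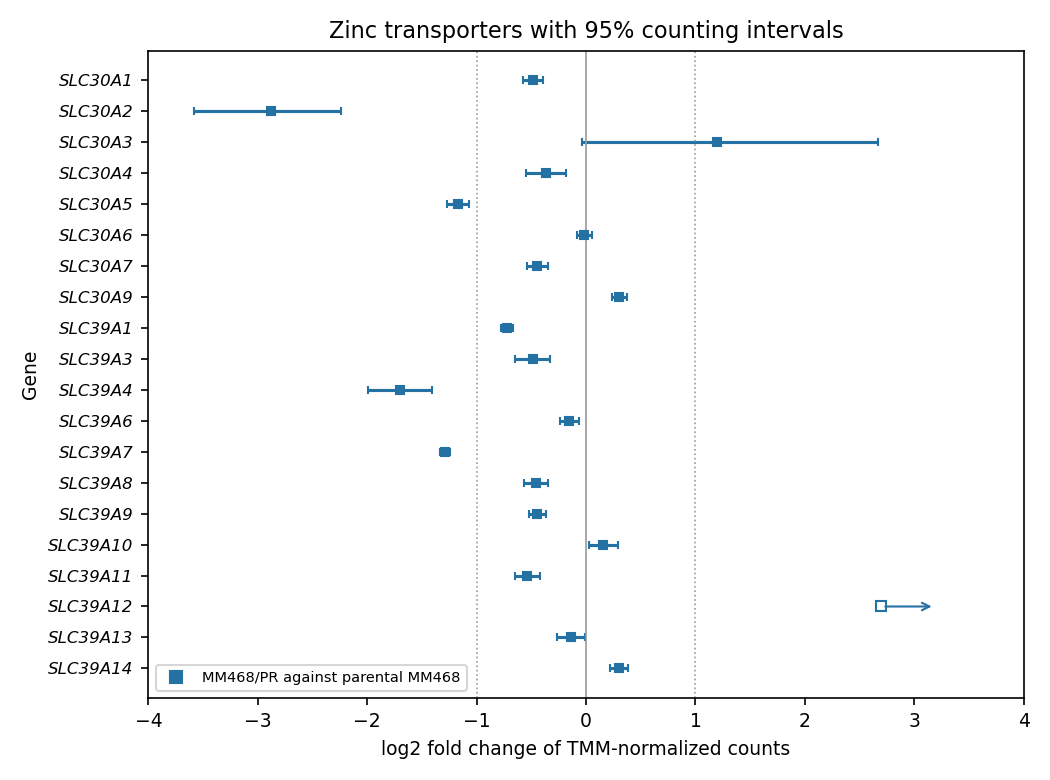
Log2 fold changes in MM468/PR against parental MM468 of the SLC30 and SLC39 zinc transporters that passed the minimum, with 95% counting intervals and dotted lines at 2-fold. SLC30A2 lies farthest to the left (-2.88), followed by SLC39A4 (-1.70); the open square with an arrow is the bound for SLC39A12, which had 0 counts in parental MM468.

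Of 9 listed copper-handling genes, 8 were found and all of these passed the minimum, and 2 were lower and 0 higher by at least 2-fold, with a median log2 fold change of -0.28. ATOX1, the chaperone that hands copper to the ATPases, had 1348 and 917 counts and was 2.27-fold lower. ATP7A, a copper-exporting ATPase, had 1018 and 755 counts and was 2.08-fold lower.

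Heavy-metal stress responses also involve genes outside the cluster, and 13 such genes, regulators among them, were listed. HSPA6, with 0 and 3 counts, passed the minimum through a library not reported here and is left out of the calls. Of the other 12, 1 was at least 2-fold lower and 0 higher, with a median log2 fold change of -0.45. NFE2L2, which encodes the oxidative stress regulator NRF2, had 5230 and 3932 counts and was 2.05-fold lower (1.97 to 2.14), and its interval reached below 2-fold. The others stayed under 2-fold in both directions, from HMOX1, heme oxygenase 1, at -0.92 (490 and 399 counts) to HSPH1, a heat shock chaperone, at 0.76 (5734 and 15008 counts) and TXNRD1, thioredoxin reductase, at 0.75 (9533 and 24763 counts).

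Metallothionein genes are also induced by glucocorticoids, and a list of glucocorticoid-response genes was read beside them. Of 9 genes, 8 passed the minimum, and 3 were lower and 1 higher by at least 2-fold. TSC22D3, the leucine-zipper gene GILZ, had 7219 and 420 counts and was 26.5-fold lower. FKBP5, a co-chaperone of the receptor, had 2919 and 1478 counts and was 3.05-fold lower. SGK1, a serum- and glucocorticoid-regulated kinase, had 683 and 380 counts and was 2.77-fold lower. KLF9, a zinc-finger transcription factor, went the other way with 118 and 885 counts, 4.86-fold higher. NR3C1, the glucocorticoid receptor gene, had 1907 and 2359 counts and stayed under 2-fold (log2 fold change -0.32). The median log2 fold change of the list was -0.26. Any link between these genes and the metallothionein values was not tested.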

How the data were processed

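RNA of the MDA-MB-468 lines was sequenced with 1 TruSeq Stranded mRNA library each. The labels name the MagMAX mirVana kit for extraction and the study's methods name the RNeasy Mini Kit. Per the submitters' processing notes, Trimmomatic 0.39, HISAT2 2.2.1, StringTie 2.2.1 and GRCh38 were used; read length and the strand setting of counting are not given in the sources used here. The authors deposited read counts, FPKM and TPM per gene in 1 table. Groups came from the sample titles. Some items, a further line of the series among them, are not reported here.

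The members and all gene lists were chosen with earlier results of these data known. Deposited counts were scaled by TMM (edgeR 4.0.16, R 4.3.3) over all 3 libraries of the series jointly. Genes with 10 or more counts in at least 1 of the 3 were compared (19561 genes), as log2 ratios with a prior count of 0.125, and 2-fold was the threshold. Intervals are exact binomial 95% intervals of a ratio of 2 counts (scipy 1.17.1). A gene at 0 was set at 3 counts to bound its fold. The calls over all genes used the fitted value, also for 129 genes with 3 or fewer counts in both libraries (32 called higher and 11 lower). No p-value was computed. Named genes were all members, genes of the metal and glucocorticoid lists past 2-fold with 100 or more counts in a compared library (at most 4 per list), and neighbours of the cluster; HMOX1, HSPH1, TXNRD1, NR3C1 and the markers named were added after their values were seen. The scaling was also varied (library size only, size factors of DESeq2 1.42.0, TMM on 2 libraries), as were the prior count (2), the minimum (none or 100 counts) and the threshold (4-fold), and the authors' TPM and FPKM were used with pseudocounts of 1 and 0.1. The scaling and fold calculations were run on simulated counts in which few genes changed, and the sequence searches were not. That run cannot show how well TMM suits these libraries, in which many genes passed 2-fold.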

Additional observations from a re-analysis of the deposited data

How the results depend on the processing

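No paired analysis was possible because each line has 1 library, and leaving out a library leaves no comparison. Of 60 log2 fold changes of members under alternatives, 31 stayed within the counting interval of the main value, 29 moved outside it with the same sign and 0 changed sign, while 11 changed their side of 2-fold. The number of members at least 2-fold lower in MM468/PR was 4, and it became 0 at a 4-fold threshold, 1 with TPM at either pseudocount, 2 with FPKM and a pseudocount of 1, and 5 with DESeq2 size factors. Over all 19561 genes compared, 936 were at least 4-fold lower. At least 2-fold lower were 1059 and 1637 with TPM at pseudocounts of 1 and 0.1. With FPKM and a pseudocount of 1 it was 882 genes, and with DESeq2 size factors 2731. MT1E went from -1.07 to -0.85 with library size only, and MT1X from -1.31 to -0.98 with TPM. The log2 fold change of the metallothionein sum was -1.44, and it was -1.22 with library size only, -1.38 with a minimum of 100 counts, -1.12 with TPM at either pseudocount and -1.20 with FPKM at either. The number of all genes at least 2-fold higher was 4032, and it was 1374 with FPKM and a pseudocount of 1, and 7035 with no minimum. The number lower was 2684, and it was 882 and 3869 under the same settings. With no minimum, 26097 genes were compared. Counting error was widest for MT1F, whose lowest count was 151, and says nothing of the spread between cultures.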
